A study of Mus musculus and Rattus norvegicus with 18 samples.

Results

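The genes described here are 31 chaperones, folding enzymes, stress sensors, degradation factors and translocon subunits of the endoplasmic reticulum (ER), chosen by symbol as an ER chaperone and unfolded protein response module. The choice was made with earlier results of these data known. All 31 had a row among the 55487 genes of the mouse heart RNA table, the 17866 genes of the heart footprint table and the 32883 genes of the rat H9C2 table, and 30, 30 and 31 of them passed the filter on low counts. The member left out in the heart was Derl3, a derlin of ER-associated degradation, with 1 to 3 reads in each RNA library and 1 to 8 footprints in each Ribo-seq library.

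Proteins that enter the secretory pathway are threaded into the ER through the Sec61 channel and folded there by the Hsp70 chaperone BiP, the Hsp90 chaperone GRP94, the lectins calnexin and calreticulin, and protein disulfide isomerases. When unfolded proteins accumulate, the sensors IRE1, ATF6 and PERK start the unfolded protein response: IRE1 splices the mRNA of the transcription factor XBP1, ATF6 is cut into a transcription factor, and PERK phosphorylates eIF2 alpha. In heart muscle the ER is continuous with the sarcoplasmic reticulum that stores calcium, and calreticulin and GRP94 bind calcium as well as client proteins.

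The heart samples came from 4-week-old C57BL/6 mice labelled Ctrl or M1cKO, a conditional knockout of Mettl1, the catalytic subunit of the enzyme that places 7-methylguanosine in tRNAs. The labels do not give the Cre driver, the deleted exons or the genotype of Ctrl at the floxed gene, and the tissue was whole heart. RNA-seq measured mRNA and Ribo-seq the fragments protected by ribosomes (footprints), with 2 Ctrl and 2 cKO libraries in each assay. H9C2 is a Sprague-Dawley rat line of heart myoblasts, compared as 3 wild type (WT) and 3 M1-null libraries, the latter from 1 line with a CRISPR-Cas9 frameshift in Mettl1. These 14 libraries are part of 18 samples; the 4 tRNA libraries were not analysed here.

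Libraries held 15052652 to 16844783 counts in heart RNA, 25171650 to 39675627 in heart footprints and 90321496 to 94202947 in H9C2. The labels do not state whether a group's libraries were made from different animals or cultures, and the p-values therefore reflect only variation among these libraries, part or all of which could be technical. Changes below are log2 fold changes of mutant over control with their standard error (SE). Mettl1 itself was at 4.31 and 3.76 CPM (counts scaled to library size) in Ctrl and 2.49 and 2.52 in cKO heart RNA, a difference that missed the threshold (adjusted p = 0.0664). Its footprints fell (log2 fold change -1.54, adjusted p = 1.0e-04), as did its H9C2 mRNA (-1.93, adjusted p = 1.1e-05), while its partner Wdr4 passed the threshold in neither. Of 8 cardiomyocyte markers, 5 fell in heart RNA and 3 in footprints; only 3 of them passed the filter in H9C2, where Ryr2 and Myl2 were at 0 in every library.

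Promoter sequence was read next, as a description of the members. The ER stress response element (ERSE), through which ATF6 and XBP1 are known to act, is CCAAT, 9 bases of any kind, then CCACG; a shorter form, ERSE-II, is ATTGG, 1 base, then CCACG. Both were searched on either strand of the 250 bases before each RefSeq start (mouse build GRCm38.p6), a window found for 25 of the 31 members. ERSE was present for 9 of these 25 members (36.0%), against 35 of 27025 genes and 37 of 32851 promoters searched (0.113%). ERSE-II was present for Herpud1 alone of the members, against 10 genes and 10 promoters (0.0304%). These totals include the members. ERSE is an element of the response by which the members were chosen, so their high share is not an independent result. The sequences below show the ERSE of Hspa5, Hsp90b1, Dnajc3, Calr and Creld2, whose heart values are given later, and the ERSE-II of Herpud1. They hold 20 bases on either side and are read from CCAAT or ATTGG to CCACG. Capitals mark the element.
Hspa5, chr2:34772005-34772063, plus strand: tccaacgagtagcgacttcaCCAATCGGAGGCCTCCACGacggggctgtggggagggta
Hsp90b1, chr10:86705618-86705676, minus strand: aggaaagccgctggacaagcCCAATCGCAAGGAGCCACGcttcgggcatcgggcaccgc
Hsp90b1, chr10:86705513-86705571, plus strand: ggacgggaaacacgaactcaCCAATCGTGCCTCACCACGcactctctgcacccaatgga
Dnajc3, chr14:118937807-118937865, plus strand: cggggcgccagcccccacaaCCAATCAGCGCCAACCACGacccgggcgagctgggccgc
Calr, chr8:84847055-84847113, plus strand: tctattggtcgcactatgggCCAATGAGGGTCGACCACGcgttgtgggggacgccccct
Creld2, chr15:88819500-88819558, minus strand: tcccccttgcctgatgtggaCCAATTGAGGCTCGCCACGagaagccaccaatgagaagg
Herpud1, chr8:94386357-94386407, plus strand: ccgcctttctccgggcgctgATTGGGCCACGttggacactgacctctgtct

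The 5' end of the printed Hspa5 element lies 65 bases before the start of the gene for BiP. Hsp90b1, the gene for GRP94, carries 2 elements, 212 and 107 bases before the start, facing in opposite directions. The other members with an ERSE were Canx, Pdia6, Syvn1 and Derl3. A match describes the letters and shows neither binding nor a cause of any value below. The rat promoters were not searched.

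**Figure D1:**
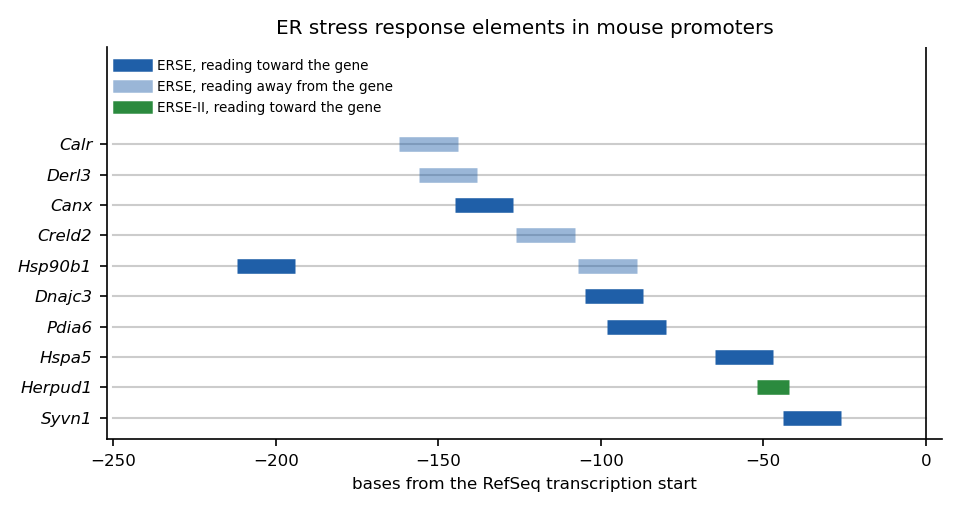
Position of each ERSE or ERSE-II in the 250 bases before the RefSeq start of mouse members that hold one (x axis, bases from the start; one row per gene). The elements lie between 26 and 212 bases before the start, and Hsp90b1 is the row with 2.

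In Ctrl hearts these genes ranged widely in footprint density, the footprint CPM per 1000 codons of the frame counted. Calr, which encodes calreticulin, had the highest density (2810 ± 99.95, SD, n = 2), followed by Hspa5 (2450 ± 112) and Herpud1 (1645 ± 10.6), a membrane scaffold of ER-associated degradation. Ern1, which encodes IRE1, at 12.0 ± 0.604 and the mannosidase-like degradation factor Edem1 at 8.02 ± 0.475 were the lowest of the 30 that passed the filter. Of these 30, 12 lay above the 90th percentile of density of all genes tested. Neighbours such as Hsp90b1 (1056 ± 83.6) and Canx, the gene for calnexin (1019 ± 82.7), did not differ beyond their spread.

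**Figure D2:**
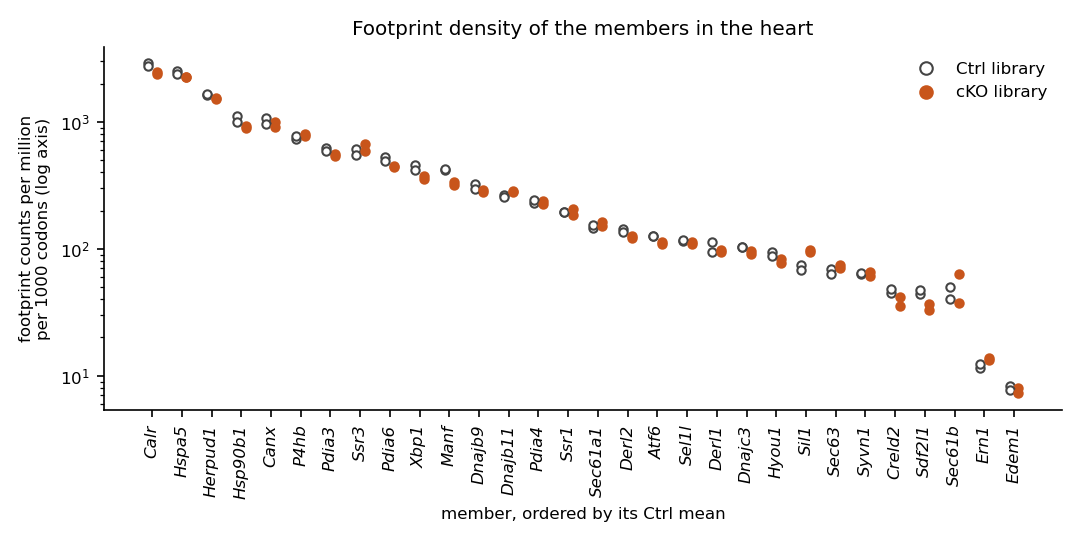
Footprint CPM per 1000 codons (log axis) of 30 members in each heart library, ordered by the Ctrl mean. Densities run from 2810 for Calr to 8.02 for Edem1, and the shifts between Ctrl and cKO are small beside this range.

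Most members also carried more footprints for their RNA than the median gene. The log2 ratio of footprint CPM to RNA CPM in Ctrl hearts had a median of 0.52 over 30 members and -0.32 over 12662 genes, and 24 of 30 members lay above the median of all genes. Hsp90b1 had the highest ratio of the members (2.62, percentile 99.2), then the disulfide isomerase Pdia4 (1.94, percentile 97.5) and Hspa5 (1.83, percentile 97.0). Edem1 (-2.51, percentile 8.85) and the derlin Derl1 (-1.58, percentile 19.3) were lowest. RNA counts include untranslated sequence and footprint counts do not, so the ratio falls with long untranslated regions; this is a description with no test.

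In heart RNA, the module as a whole sat where all genes sat. Of 30 members tested, 2 rose and 1 fell (edgeR's quasi-likelihood test, Benjamini-Hochberg adjusted p under 0.05 over 14088 genes), and 27 passed in neither direction. Over all genes, 8.16% rose and 6.26% fell, so the members' shares of 6.67% and 3.33% were no higher than the background. Their median log2 fold change was 0.0036 beside -1.3e-04 for all genes, and the values lay between -0.27 and 0.36. The Ctrl and cKO libraries did not overlap for 12 of the 30 (40.0%), against 55.0% of all genes. When libraries were scaled by their totals instead of TMM factors, the split over all genes moved from 1150 up and 882 down to 1769 up and 506 down.

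The gene that fell was Hsp90b1 (chr10:86690841-86705444 in GRCm38.p6). The Ctrl libraries had 146 and 129 CPM, the cKO libraries 118 and 115. Both cKO libraries lay below both Ctrl libraries, and the RNA fell by 0.24 on the log2 scale (SE 0.0683, adjusted p = 0.0276). With 1 heart library left out, its group has 1 library, which is assumed to vary like the other group. The call was lost without Ctrl 1 (-0.15, adjusted p = 0.313), cKO 1 (adjusted p = 0.0874) or cKO 2 (adjusted p = 0.101), with library totals (adjusted p = 0.136), and with DESeq2 (adjusted p = 0.0984).

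P4hb, which encodes the founding protein disulfide isomerase (chr11:120560298-120573253), was at 274 and 294 CPM in Ctrl and 342 and 318 in cKO. The groups did not overlap, and the RNA rose by 0.22 on the log2 scale (SE 0.0594, adjusted p = 0.0232). Dnajb9, an ER J-protein that assists BiP and represses IRE1 (chr12:44205897-44210068), was at 53.3 and 48.8 CPM in Ctrl and 62.2 and 58.7 in cKO, and rose by 0.25 (SE 0.0760, adjusted p = 0.0423). P4hb missed the threshold without Ctrl 1 (0.17, adjusted p = 0.178) or cKO 1 (0.16, adjusted p = 0.184) and with DESeq2 (0.22, adjusted p = 0.0743). Dnajb9 missed it without Ctrl 2 (0.18, adjusted p = 0.247), cKO 1 (0.20, adjusted p = 0.256) or cKO 2 (0.28, adjusted p = 0.0685) and with DESeq2 (0.24, adjusted p = 0.210).

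Hspa5 is the standard readout of the unfolded protein response. Its RNA was at 460 and 445 CPM in Ctrl and 454 and 427 in cKO (log2 fold change -0.04, SE 0.0541, adjusted p = 0.705), so the groups overlapped, and the sign turned with library totals and without cKO 2. The members closest to the threshold without passing it were Dnajc3 and Sil1. Dnajc3, an inhibitor of PERK, was at 50.5 and 44.1 against 40.7 and 37.8 CPM (-0.27, adjusted p = 0.0542). Sil1, a nucleotide exchange factor of BiP, was at 11.9 and 11.5 against 14.9 and 15.1 CPM (0.36, adjusted p = 0.0592). In both, the cKO libraries lay apart from the Ctrl libraries. Dnajc3 passed the threshold without Ctrl 2 (-0.36, adjusted p = 0.0057) and when only a minimum of 1 count was required (-0.27, adjusted p = 0.0351), while without Ctrl 1 it was at -0.16 (adjusted p = 0.375). Sil1 passed with library totals (0.44, adjusted p = 0.0201).

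**Figure D3:**
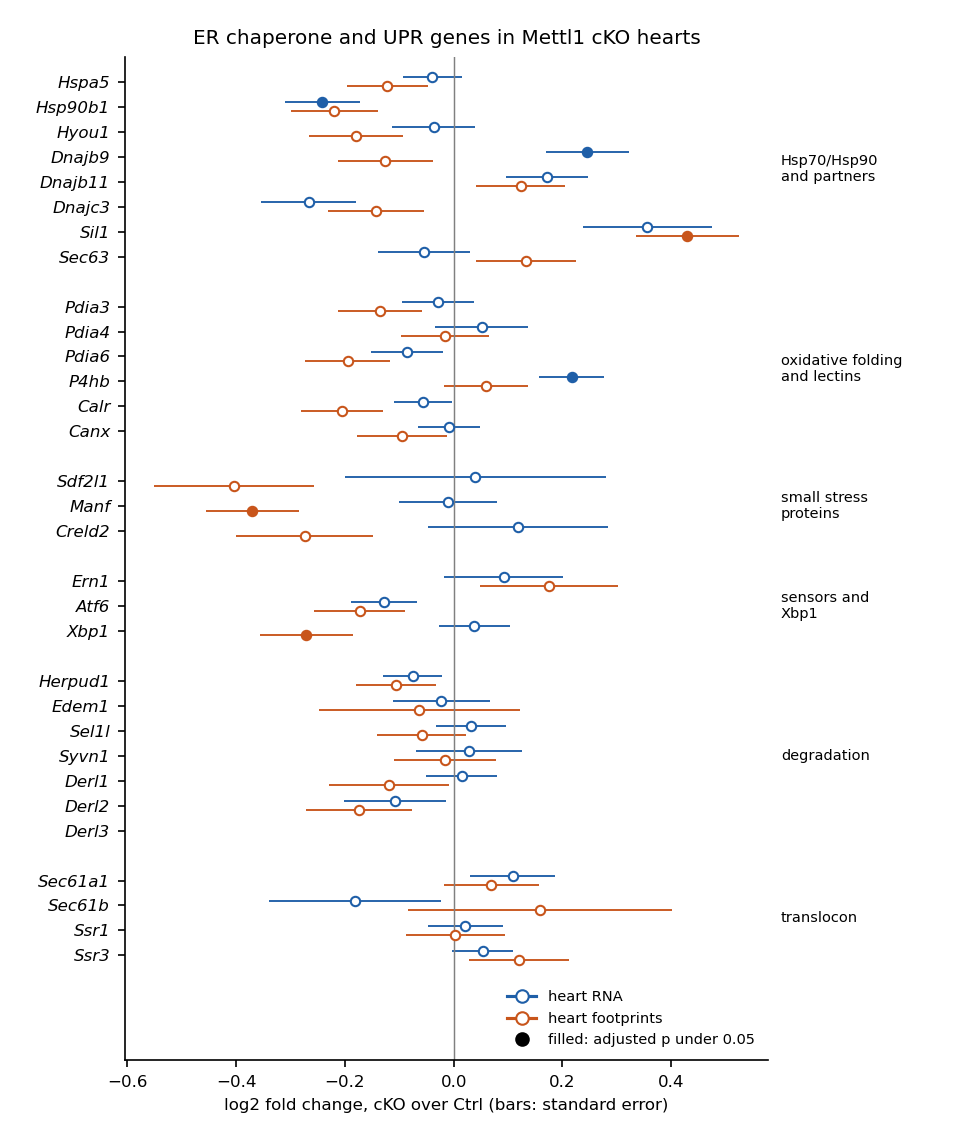
Log2 fold change of cKO over Ctrl (x axis, bars are standard errors) for the members in heart RNA (blue) and heart footprints (orange), grouped by role; filled points passed adjusted p under 0.05. Filled points are Hsp90b1, Dnajb9 and P4hb in RNA and Sil1, Manf and Xbp1 in footprints, and 21 of 30 orange points lie below 0.

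In heart footprints, 1 of 30 members rose and 2 fell, against 9.11% rising and 7.33% falling over 13514 genes. The members' shares of 3.33% and 6.67% were again no higher than the background. Their median log2 fold change was -0.11 beside 0.0040 for all genes; 21 of the 30 values were below 0, against 49.4% of all genes. The libraries did not overlap for 20 of 30 members (66.7%) and for 55.9% of all genes. With library totals, 17 of 30 were below 0 and the median was -0.04, while the split over all genes went from 1231 up and 990 down to 1639 up and 657 down.

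Manf, a small ER protein that is secreted under stress (chr9:106888753-106891938), was at 74.5 and 76.1 footprint CPM in Ctrl and 59.5 and 56.9 in cKO. The cKO libraries were clearly below, and the footprints fell by 0.37 on the log2 scale (SE 0.0852, adjusted p = 0.0072). Its RNA stayed at 33.6 and 35.5 against 36.2 and 32.3 CPM, with overlapping groups. The footprint call was lost without cKO 2 (-0.34, adjusted p = 0.0936).

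Xbp1, whose mRNA IRE1 splices to give a transcription factor (chr11:5520641-5525993), was at 123 and 112 footprint CPM in Ctrl and 94.0 and 101 in cKO. It fell by 0.27 (SE 0.0859, adjusted p = 0.0427) while its RNA was at 87.2 and 83.8 in Ctrl and 88.2 and 87.4 in cKO. The footprints were counted in a frame of 267 codons, and the table does not separate spliced from unspliced Xbp1. The fall is therefore not a measure of the factor made after splicing. The call was lost without Ctrl 1 (adjusted p = 0.172), cKO 1 (0.341) or cKO 2 (0.100) and with library totals (0.128).

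Sil1 was the member that rose in footprints, from 34.5 and 31.7 CPM in Ctrl to 45.2 and 43.9 in cKO (0.43, SE 0.0946, adjusted p = 0.0055). Without cKO 1 the adjusted p was 0.0698. Its RNA, given above, was also higher in both cKO libraries.

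**Figure D4:**
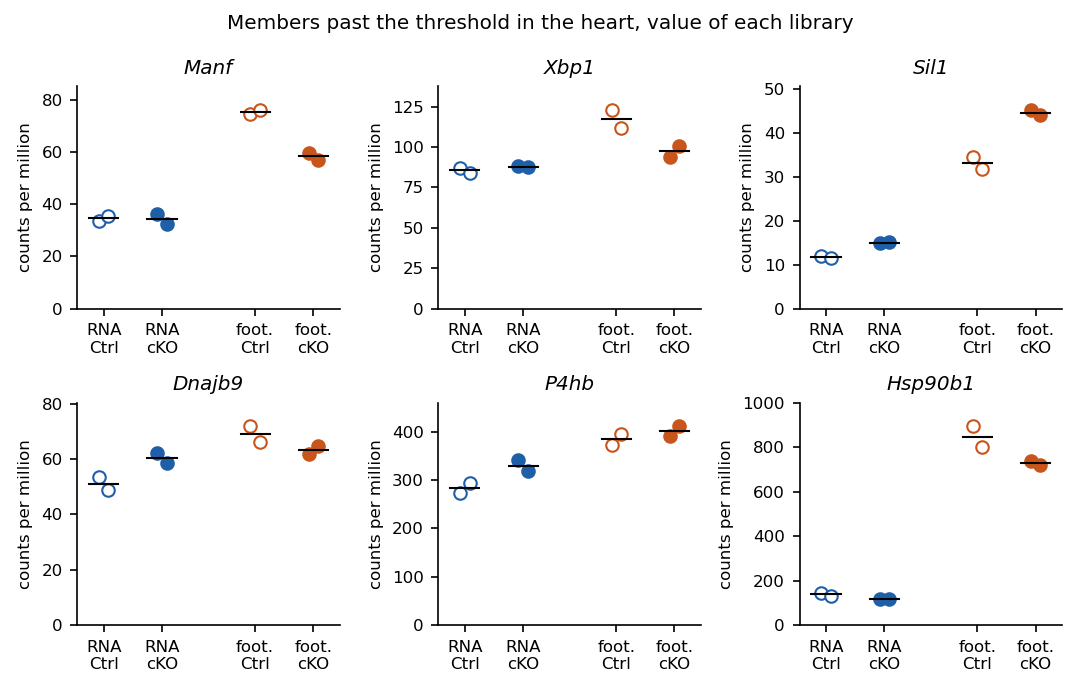
CPM of each Ctrl (open) and cKO (filled) library for the 6 members that passed the threshold in heart RNA or in heart footprints; lines are group means and axes start at 0. Manf and Xbp1 footprints are lower in cKO while their RNA is level, and Sil1 is higher in both assays. The change in footprints relative to RNA passed the threshold for neither Manf nor Xbp1 (edgeR interaction, adjusted p = 0.358 and 0.377).

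By role, the 3 small stress proteins all had footprint values below 0. Beside Manf, Sdf2l1, a BiP co-factor, went from 9.77 and 10.4 CPM to 8.06 and 7.22 (-0.40, adjusted p = 0.0768), and Creld2, a disulfide isomerase of the stress response, from 15.6 and 16.9 to 12.4 and 14.5 (-0.27, adjusted p = 0.166). Neither passed the threshold, although in both the groups did not overlap. Of 6 degradation factors tested 6 were below 0, and 3 were with library totals; of 6 folding enzymes and lectins 5 were, and 4 with library totals. The 4 translocon members lay between 0.0032 (Ssr1) and 0.16 (Sec61b), and 2 of them were below 0 without cKO 1. None of these members passed the threshold. Calr went from 1198 and 1140 to 1028 and 999 footprint CPM (-0.21, adjusted p = 0.0762), Hsp90b1 from 895 and 800 to 737 and 718 (-0.22, adjusted p = 0.0750), and Hspa5 from 1657 and 1553 to 1478 and 1472 (-0.12, adjusted p = 0.314). Calr passed without Ctrl 2 (-0.24, adjusted p = 0.0475) and with limma-voom (adjusted p = 0.0488), but not without Ctrl 1 (-0.17, adjusted p = 0.172), cKO 1 or cKO 2 (adjusted p = 0.259 and 0.363). Hsp90b1 passed without Ctrl 2 (-0.30, adjusted p = 0.0193) and when only a minimum of 1 count was required (adjusted p = 0.0381), but not without Ctrl 1 (-0.14, adjusted p = 0.282), cKO 1 or cKO 2 (adjusted p = 0.239 and 0.321).

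The 8 tested members with an ERSE in the promoter had a median of -0.05 in RNA, with 6 of 8 below 0, and of -0.17 in footprints, with 8 of 8 below 0, where 49.4% of all genes were. With library totals 3 of 8 were below 0 in RNA and 7 of 8 in footprints, where Syvn1 turned; it also turned without cKO 1. The 16 members whose window held no ERSE had medians of 0.04 and -0.04, with 6 and 9 below 0. With library totals, 2 of these 16 were below 0 in RNA and 6 in footprints. The 16 include Herpud1, whose window holds an ERSE-II. Among the 8, Hsp90b1 was the RNA that fell, and no member passed in footprints. These counts describe the members, and their difference was not tested.

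Translational efficiency, the footprints a gene has for its RNA, was compared between genotypes through an interaction term over both assays. With edgeR 0 of 30 members passed the adjusted threshold, against 17 of 12662 genes (0.134%) in either direction, and 0 did with DESeq2. An unadjusted p under 0.05 was reached by 3 members with each tool; with edgeR that was 3 of 30, against 1183 of 12662 genes (9.34%). The 3 with edgeR were Dnajb9 (log2 change in the ratio -0.37, SE 0.117, adjusted p = 0.325), Manf (-0.36, SE 0.120, adjusted p = 0.358) and Xbp1 (-0.31, SE 0.107, adjusted p = 0.377). Dnajb9 combined RNA that rose with footprints of 71.8 and 66.2 CPM in Ctrl and 61.7 and 64.7 in cKO (-0.13, adjusted p = 0.385). Sdf2l1 and Creld2 had similar point values with wide errors (-0.44, SE 0.270, and -0.39, SE 0.222), and with 1 library left out they ran from -0.65 to -0.18 and from -0.64 to -0.07. For Sil1 the ratio moved by 0.08 (SE 0.142, adjusted p = 0.912), since RNA and footprints were both higher. Over the members the median was -0.07 and 23 of 30 were below 0, against 50.3% of all genes.

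Several cell markers moved between the heart groups. The summed level of the 8 cardiomyocyte markers was 51177 to 51384 CPM in Ctrl RNA and 46817 to 47385 in cKO, and 129450 to 135010 against 112490 to 113420 in footprints. Of 6 endothelial markers 2 fell in RNA (Cldn5, Pecam1), and of 5 tested in footprints Vwf rose (0.35, adjusted p = 0.0128) and Cdh5 fell (-0.36, adjusted p = 0.0173). Of 4 erythroid markers 3 rose in RNA and 0 in footprints. Their summed RNA level was 1351 to 1470 CPM in Ctrl and 1478 to 2308 in cKO, and cKO 1 stood apart: Hbb-bs was at 1594 CPM in cKO 1, 966 in cKO 2 and 907 and 969 in Ctrl. No marker of fibroblasts (8), macrophages (7 in RNA, 6 tested in footprints) or B and plasma cells (4 tested of 7) passed in either assay. Of 6 smooth muscle and pericyte markers Acta2 fell in both assays, and Des, on the skeletal myoblast list, rose in both. The part of these shifts in the members' values was not tested. In whole tissue, fewer cells of a type and less RNA per cell cannot be told apart.

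The remaining genes of the pathway, given as counts from 7 lists, also passed unevenly in the heart. Over all genes, as above, 8.16% rose and 6.26% fell in RNA and 9.11% and 7.33% in footprints. The lists were chosen with earlier results of these data known, so their shares are descriptions only. In the list of the PERK arm and the wider integrated stress response, 3 of 13 rose in RNA and 5 of 13 in footprints, with none falling (list medians 0.13 and 0.28). Ddit3, the transcription factor CHOP, rose by 1.16 in RNA (adjusted p = 2.4e-05) and 1.67 in footprints (adjusted p = 3.2e-05), Atf4 by 0.27 and 0.68, and Asns, asparagine synthetase, by 0.77 and 1.18. Of the sensors among the members, Ern1 was at 19.1 and 22.9 against 22.5 and 22.2 CPM in RNA, and Atf6 at 137 and 143 against 126 and 130 (-0.13, adjusted p = 0.192).

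Among other ER chaperones 1 of 19 rose and 2 fell in RNA, and 2 rose and 5 fell in footprints. They were led by Fkbp11, Cdnf and Fkbp10. Fkbp11, a prolyl isomerase of secretory cells, rose by 1.25 in RNA (SE 0.326, adjusted p = 0.0173) and 1.73 in footprints. Its RNA was low, with 19 and 14 reads in Ctrl and 47 and 36 in cKO. Cdnf, the paralog of Manf, fell by 0.75 and 0.64, and Fkbp10, a collagen chaperone, fell by 0.37 and 0.50. Of 22 further degradation genes none passed in either heart assay. Of 16 glycosylation genes 2 rose in RNA (Mogs 0.46, Dad1 0.24) and 1 in footprints (Mogs 0.52). Of 18 oxidative folding genes Txndc5 rose (0.22) and Tmx1 fell (-0.31) in RNA, and Tmx4 fell in footprints (-0.37). In the translocation list of 22, Spcs1, of the signal peptidase, rose in both assays (0.37 and 0.45), Sec62 fell in RNA (-0.28) and Srp14 rose in footprints (0.30). Of 12 UPR sensors and proteases none passed in RNA, and in footprints Creb3l1 (0.48) and Mbtps1 (0.36) rose while Map3k5 (-0.34) and Traf2 (-0.36) fell.

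In H9C2 cells more members passed the threshold, and most of those fell. Of 31 tested, 3 rose and 12 fell, against 13.6% rising and 11.5% falling over 14801 genes; the members' shares were 9.68% and 38.7%. The WT and M1-null libraries did not overlap for 17 of 31 members (54.8%), against 42.6% of all genes. The members' median was -0.09 beside 0.0044 for all genes, and 19 of 31 were below 0. The M1-null cells were 1 edited line, so differences between lines and the loss of Mettl1 cannot be told apart.

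All 4 translocon members fell. Sec61a1, the channel subunit, was at 393, 399 and 417 CPM in WT and 263, 256 and 269 in M1-null cells (-0.62, SE 0.0471, adjusted p = 5.0e-05). Sec61b, a small channel subunit, was at 135, 154 and 118 against 82.8, 99.8 and 95.3 (-0.55, SE 0.104, adjusted p = 0.0055). The translocon-associated Ssr1 was at 199, 193 and 197 against 157, 157 and 160 (-0.32, SE 0.0432, adjusted p = 0.0011), and Ssr3 at 124, 125 and 131 against 108, 110 and 111 (-0.20, SE 0.0471, adjusted p = 0.0140). In each, every M1-null library lay below every WT library. Ssr3 was lost without M1-null 1, 2 or 3 (adjusted p = 0.0564 to 0.0609); the other 3 kept the call in all 13 alternatives.

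Among folding enzymes, Pdia4 fell about as far as Sec61a1, from 454, 449 and 464 CPM to 287, 298 and 300 (-0.63, SE 0.0445, adjusted p = 3.5e-05). P4hb went from 1184, 1172 and 1159 to 1013, 1019 and 1017 (-0.21, SE 0.0397, adjusted p = 0.0061). Pdia3, Calr and Canx overlapped between the groups, at 831 to 872 against 839 to 859, 1241 to 1314 against 1261 to 1361, and 751 to 852 against 799 to 825 CPM.

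The chaperone system around BiP split. Sil1 fell from 15.3, 14.5 and 15.1 CPM to 10.2, 9.92 and 11.7 (-0.50, SE 0.0920, adjusted p = 0.0049), and Dnajb11, a J-protein that brings unfolded clients to BiP, rose from 182, 175 and 161 to 204, 211 and 220 (0.29, SE 0.0590, adjusted p = 0.0072). Hspa5 was at 712, 702 and 720 in WT and 670, 706 and 708 in M1-null (-0.03, SE 0.0444, adjusted p = 0.617), so the groups overlapped. Hsp90b1 went from 1260, 1233 and 1278 to 1116, 1158 and 1160 (-0.14, adjusted p = 0.0479). That last call held in 5 of 13 alternatives and was lost when any single library other than WT 2 was left out (adjusted p = 0.0555 to 0.169). Sil1, Dnajb11, Pdia4 and P4hb passed in all 13.

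**Figure D5:**
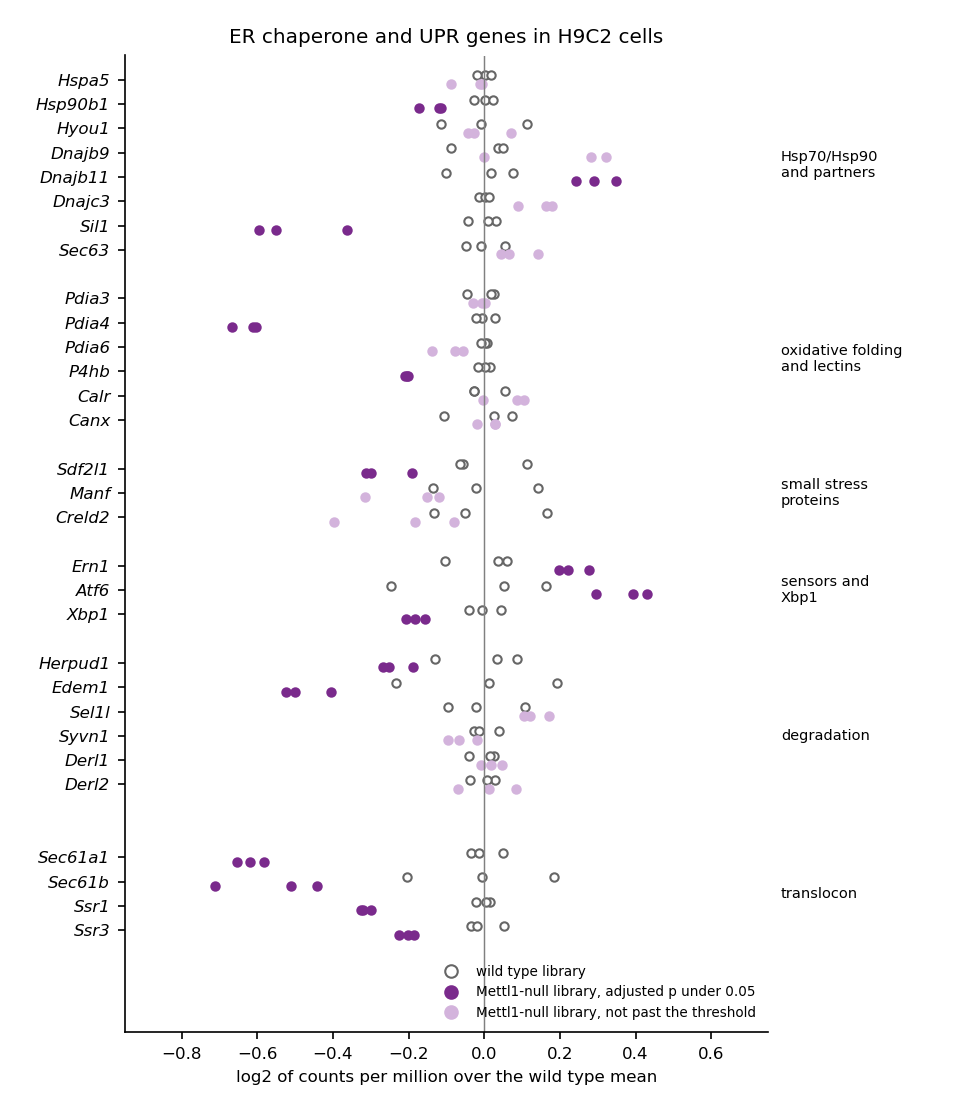
Log2 of each library's CPM over the WT mean (x axis) for 30 members in H9C2, grouped by role; open points are WT, filled points M1-null, dark where the adjusted p was under 0.05, and Derl3, with 25 to 52 reads a library, is left out. The M1-null points of Sec61a1, Sec61b, Pdia4 and Sil1 lie to the left of all their WT points, and those of Atf6, Dnajb11 and Ern1 to the right of WT.

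The sensors and their target factor moved apart. Atf6 was at 72.9, 59.4 and 78.9 CPM in WT and 94.8, 86.4 and 92.5 in M1-null (0.37, SE 0.0981, adjusted p = 0.0238), and Ern1 at 24.3, 21.7 and 23.9 against 28.3, 27.2 and 26.8 (0.23, SE 0.0697, adjusted p = 0.0408). Xbp1 fell from 83.1, 88.1 and 85.1 to 74.0, 76.6 and 75.3 (-0.18, SE 0.0488, adjusted p = 0.0262). The 3 calls were near the threshold. Atf6 was lost without WT 1 or any M1-null library (adjusted p = 0.0520 to 0.0945), Ern1 without WT 1, WT 2 or any M1-null library (0.0718 to 0.139), and Xbp1 without WT 1 or any M1-null library (0.0588 to 0.101). Ern1 was also lost when only a minimum of 1 count was required (adjusted p = 0.0585), and Xbp1 with library totals (-0.14, adjusted p = 0.0568).

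Of the degradation factors, Edem1 fell from 76.1, 64.2 and 86.2 CPM to 57.0, 52.5 and 53.4 (-0.48, SE 0.0998, adjusted p = 0.0091) and kept the call in all 13 alternatives. Herpud1 fell from 181, 187 and 161 to 147, 148 and 155 (-0.23, SE 0.0637, adjusted p = 0.0273), a call lost without WT 1 or any M1-null library (adjusted p = 0.0661 to 0.105). Sel1l, Syvn1, Derl1, Derl2 and Derl3 overlapped between the groups. Of the small stress proteins, Sdf2l1 fell from 28.0, 31.5 and 27.8 to 23.7, 25.5 and 23.5 (-0.27, SE 0.0748, adjusted p = 0.0316), a call lost when any single library other than WT 3 was left out (adjusted p = 0.0532 to 0.122). Manf (-0.19, adjusted p = 0.125) and Creld2 (-0.21, adjusted p = 0.159) did not pass, except that Manf did without WT 3 (-0.26, adjusted p = 0.0340); without WT 2 it was at -0.11 (adjusted p = 0.275).

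The further lists in H9C2 also held glycosylation and chaperone genes that fell, beside 13.6% of all genes rising and 11.5% falling. Of 14 glycosylation genes tested 4 fell and none rose: Rpn1 (-0.58, adjusted p = 3.7e-05), Mogs (-0.82), Rpn2 (-0.16) and Ddost (-0.20), of which Rpn1, Rpn2 and Ddost are subunits of the oligosaccharyltransferase at the translocon. In the translocation list, 4 of 20 rose and none fell, led by Tram1, a translocon partner (1.77, adjusted p = 1.1e-06). Of 20 other chaperones 2 rose and 4 fell, led by Fkbp9 (-0.63) and the collagen chaperone Serpinh1 (-0.41). In the PERK and stress list Ddit3 rose (0.57) while Asns (-1.03) and Atf4 (-0.36) fell. Among UPR sensors and proteases Wfs1 (0.77) and Creb3 (0.49) rose, and Creb3l1 (-0.46) and Mbtps1 (-0.23) fell. Pdia5 (-0.58) and Prdx4 (-0.32) fell in the oxidative folding list, and of 22 further degradation genes Hm13 rose (0.20) and Tmub1 fell (-0.43).

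Markers also moved in H9C2: of 6 fibroblast markers tested 4 fell and 1 rose, and their summed level was 11469 to 12428 CPM in WT and 9358 to 9816 in M1-null. The summed skeletal myoblast markers went from 150 to 176 in WT to 277 to 294 in M1-null, with Myf5 and Pax7 at 0 throughout; Des (1.42) and Myod1 (0.71) rose and Myog fell (-1.10, adjusted p = 5.3e-05). The summed cardiomyocyte markers were at 25.4 to 27.7 CPM in WT and 12.5 to 14.4 in M1-null. Most of that sum was Tnnt2, at 22.0 to 25.0 CPM in WT and 7.19 to 8.31 in M1-null. Tnnt2 fell (-1.57) and Pln rose (0.85), and the median of the 3 markers tested was 0.84. Of 5 smooth muscle markers tested 2 rose and 1 fell; of the endothelial, macrophage, B and plasma cell, and erythroid markers 1, 2, 1 and 0 could be tested, and none passed. Their part in the members' values was not tested.

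Of the 6 members that passed in heart RNA or footprints, 4 (66.7%) also passed in H9C2, where they were 26.7% of the 15 that did: Hsp90b1, P4hb, Sil1 and Xbp1. These 15 were of 31 members tested in H9C2. The same overlap over all genes was not counted, so 4 of 6 is a description only. Altogether 14 members passed nowhere, Hspa5, Calr, Canx and Pdia3 among them. Hsp90b1 fell in heart RNA and in H9C2, and Xbp1 fell in heart footprints and in H9C2 RNA. P4hb rose in heart RNA and fell in H9C2, and Sil1 rose in heart footprints and fell in H9C2. The tables are of different species and were normalized apart, so no test was made between them.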

How the data were processed

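The authors deposited whole-number read counts per gene for heart RNA and H9C2 RNA and footprint counts per open reading frame for heart Ribo-seq, none normalized; the unit was read from the values. Per the submitters' processing notes the builds were GRCm38 and Rnor_6.0, and the tools included cutadapt, the aligners STAR, HISAT2, Bowtie and Bowtie2, the counters featureCounts and StringTie, and DESeq2. Their versions, roles and strand setting are not given in the sources used here. Because H9C2 column names end in gtf, an annotation format, those counts may derive from transcript assembly; this was not settled. For each gene the frame with most footprints was kept (98.91% of footprints). Fits ran over whole tables with edgeR 4.0.16 in R 4.3.3 (quasi-likelihood test, TMM factors, filterByExpr, Benjamini-Hochberg threshold 0.05); translational efficiency was the interaction of genotype and assay over the 8 heart libraries. CPM use TMM-scaled library sizes.

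Alternatives were DESeq2 1.42.0, limma-voom 3.58.1, other scalings, filters and frames, a replicate block, and each library left out. Testing every frame was added after seeing the data. The members, the 7 pathway lists and the 8 marker lists were chosen with earlier results of these data known. Members past the threshold are given with every library's value, and up to 3 genes per list by smallest adjusted p, or all where a count of 5 or fewer is spelled out. Mouse symbols matched 55141 of 55487 heart IDs. Positions and promoters are RefSeq's for GRCm38.p6; 6 members had no promoter window. Values of 2 columns of the tRNA table were not used. Depth per library stands in the report and limits precision by counting error and by the number of libraries.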

Additional observations from a re-analysis of the deposited data

Results flagged for a closer look

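For 6 members every cKO heart RNA library lay on one side of Ctrl and every M1-null H9C2 library on the opposite side of WT; the difference between heart and H9C2 was not tested. The log2 fold changes in heart RNA and in H9C2 were -0.27 and 0.14 for Dnajc3, 0.36 and -0.50 for Sil1, 0.22 and -0.21 for P4hb, -0.13 and 0.37 for Atf6, 0.038 and -0.18 for Xbp1, and 0.053 and -0.20 for Ssr3. Only P4hb passed the threshold in both tables. With 2 libraries against 2, 55.0% of all heart genes showed no overlap, and 42.6% did in H9C2 with 3 against 3. The share of all genes apart in both tables in opposite directions was not counted. The 6 members are therefore a description and not shown to be an excess.

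A second reading frame of Dnajb9, of 121 codons and overlapping the start of the frame used above, held 14 and 25 footprints in Ctrl and 62 and 48 in cKO. Scaled to CPM the cKO mean was 2.17 times the Ctrl mean. With every frame tested on its own, 2200 of 17188 frames passed the threshold and this one did not (log2 fold change 1.10, SE 0.385, adjusted p = 0.0779). The frame held 0.805% to 2.45% of the gene's footprints.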

How the results depend on the processing

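In heart RNA, 2 members rose and 1 fell; 0 and 0 did with DESeq2, 4 and 0 with library totals, and 2 fell when at least 1 count was the sole filter. With 1 library left out, 0 to 1 rose and 0 to 2 fell. In heart footprints, where 1 rose and 2 fell, library totals left 1 that fell, and leaving out 1 library gave 0 to 1 rising and 0 to 4 falling. No member passed for translational efficiency under any of the alternatives. In H9C2, 3 rose and 12 fell, and leaving out 1 library gave 1 to 4 and 7 to 12. The number of members above the median footprint to RNA ratio was 24 also with footprints summed over all frames and with the longest frame. The value of Hspa5 in heart RNA turned positive with library totals (0.041; -0.086 to 0.0032 with 1 library left out), as did Manf (0.070; -0.096 to 0.065) and Hspa5 in H9C2 (0.0033); library totals shifted the median of all genes by 0.08, 0.07 and 0.04 in heart RNA, footprints and H9C2.

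With the replicate number as a block (replicate block), 3 members rose and 2 fell in heart RNA, 1 rose and 4 fell in footprints, and 2 rose and 9 fell in H9C2. The block added Dnajc3 (adjusted p = 0.0123) and Sil1 (0.0453) in heart RNA and Hsp90b1 (0.0306) and Calr (0.0412) in footprints, and Ern1 (0.0673), Xbp1 (0.0649), Herpud1 (0.0629) and Hsp90b1 (0.117) were not called with it in H9C2. Within each assay, deviations of same-numbered Ctrl or WT and mutant libraries correlated at 0.0092 in heart RNA, -0.04 in footprints and -0.05 to 0.05 in H9C2. These values showed no pairing of control with mutant libraries. RNA and footprint libraries of the same genotype and number were not checked this way. A block that paired them for translational efficiency gave 56 genes up and 74 down, against 10 and 7 in the main fit. No member passed in either. Members at low counts had the widest errors (in heart RNA, SE 0.240 for Sdf2l1, 0.165 for Creld2 and 0.158 for Sec61b). Changes of 1 SE, and also clearly larger ones, would not be called there. Dnajc3, for example, missed the threshold in heart RNA at -0.27 with an SE of 0.0872.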

Other observations

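An upstream frame of Hspa5, of 31 codons (chr2:34772050-34772145), held 854 and 914 footprints in Ctrl and 1125 and 1007 in cKO, between 1.76% and 2.10% of the gene's footprints in each library. It begins 40 bases before the RefSeq start used for the promoter window. Its footprints did not pass the threshold with every frame tested on its own (log2 fold change -0.15, SE 0.117, adjusted p = 0.476). Of the 8 members with more than 1 frame in the table, 3 of 9 further frames had enough footprints to test: those of Hspa5 and Dnajb9 and one of 63 codons in Ssr1, which held 34 and 70 footprints in Ctrl and 69 and 73 in cKO.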
